A study of Mus musculus with 6 samples.

Results

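Potassium channel and voltage-gated calcium channel subunits were followed in Gli1-lineage cells of the adult mouse ovary, isolated by sorting. The genes were taken by symbol: those beginning with Kcn or with Cacna1, Cacna2d, Cacnb or Cacng, without Kcnj8. This gave 103 genes on 212 probe sets, of 18193 named genes and 45037 probe sets without controls. Of the 103 genes, 79 encode potassium channel subunits and 24 encode calcium channel subunits. The choice used gene names and no measured value.

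Potassium channels let potassium leave the cell and hold the membrane at a negative voltage. Voltage-gated calcium channels open when that voltage is lost and admit the calcium that drives contraction in smooth muscle and secretion in endocrine cells. Each channel is built from pore subunits and from accessory subunits that set its gating, its amount at the surface or its sensitivity to calcium. Theca cells wrap the follicle, make androgens, and lie in a layer that also holds contractile cells.

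All samples came from female Gli1-CreERT2; Rosa-LSL-tdTomato mice of strain 129S6/SvEvTac at 2 months of age. The 3 mesonephros-derived samples (replicates 1 to 3) were labelled in the fetus with tamoxifen on 3 embryonic days (E12.5, E14.5 and E16.5). The 3 ovary-derived samples were labelled through tamoxifen given to the nursing mother on postnatal days 1 to 3. Cre was driven by Gli1, a hedgehog target gene, so tdTomato marks whichever cells used Gli1 at labelling, together with their descendants, and cells were sorted on it. The labels speak of sorting both tdTomato+ and tdTomato- cells, and that the measured cells were the Gli1-positive ones rests on the design text alone. Origin and time of tamoxifen cannot be told apart in this design, and nothing says whether replicates were different animals, so the spread behind each p-value may be only technical. In such bulk samples, fewer cells of a type and less RNA per cell cannot be told apart.

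The cells carried theca markers. Of the 12 theca markers 10 were tested, and 6 of these had a higher mean in mesonephros-derived cells. Their summed signal was 67258, 78226 and 69487 in mesonephros-derived replicates 1 to 3, against 52322, 51172 and 55724 in ovary-derived ones. The arrays were not equally tight: member probe sets correlated at 0.779 to 0.821 between mesonephros-derived arrays and at 0.908 to 0.920 between ovary-derived arrays (Pearson's r of log2 values over probe sets that share arrays). The SD of the tested subunits around their group means was 0.80, 0.74 and 0.60 on the log2 scale in mesonephros-derived replicates 1 to 3 and 0.35, 0.31 and 0.36 in the ovary-derived ones. The ratio of 3' to 5' Gapdh signal, a measure of RNA integrity and amplification, was 5.29, 3.48 and 2.63 on the mesonephros-derived arrays and 1.94, 2.39 and 2.86 on the ovary-derived ones, and its part in the results was not tested.

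Most of the subunit genes were dim. A gene was tested where its brightest probe set reached the 40th percentile of all probe sets in its mean of log2(signal + 16) over all 6 arrays, a level that corresponds to a signal of 99.4, and 42 of the 103 genes did: 30 potassium channel and 12 calcium channel genes. The other 61 lay below this floor, 30 of them on all 6 arrays. Because the mean is of log2 values, a gene with a few bright arrays can lie below the floor although its mean signal exceeds 99.4. Among the 103 genes were Cacnb1, Cacnb2 and Cacnb4 as beta subunits of calcium channels, and all 3 were tested. So were 3 of 4 BK channel genes, 3 of 4 Kv channel-interacting proteins and 3 of 4 L-type pore genes. At the other end were the small- and intermediate-conductance calcium-activated potassium channels, with 0 of 4, and the Kv pore subunits, with 8 of 22.

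**Figure D1:**
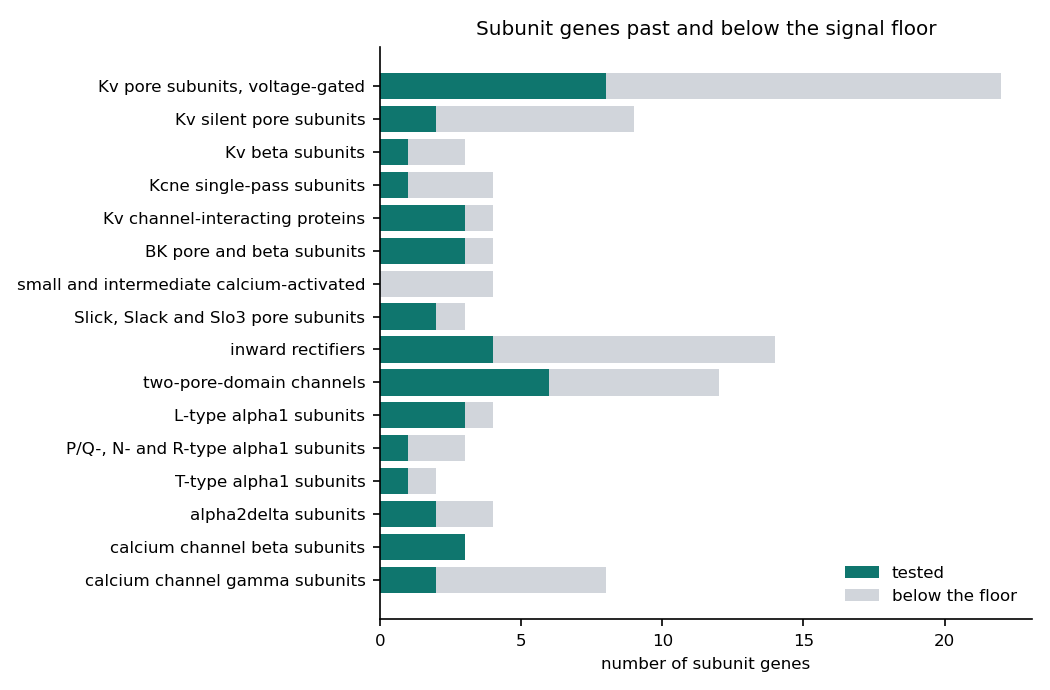
Number of subunit genes (x axis) in each structural role (y axis), split into those tested and those below the signal floor. The Kv pore subunits are the biggest role with 22 genes, of which 8 were tested, and the inward rectifiers follow with 4 of 14.

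No subunit passed an adjusted p of 0.05 in limma (0 of 42), against 0.0427% of the 11703 genes tested. At an unadjusted p below 0.05 stood 11 subunits, 8 higher and 3 lower in mesonephros-derived cells, which is 26.2% against 13.7% of all genes (6.46% higher and 7.22% lower), with limma adjusted p-values of 0.229 to 0.362. The 3 arrays of a group did not overlap the 3 of the other for 17 subunits, 40.5% against 22.2% of all genes. Of these, 12 were higher in mesonephros-derived cells (9.56% of all genes) and 5 were lower (12.6% of all genes). Leaving out ovary-derived replicate 1, 2 or 3 brought the subunits at an unadjusted p below 0.05 to 5, 6 and 5, against 5.45%, 6.41% and 8.18% of all genes. Leaving out mesonephros-derived replicate 1 or 3 brought the non-overlapping lower ones to 8, while the share of all genes without overlap in either direction came to 36.5% and 39.9%.

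The tested subunits leaned towards higher signal in mesonephros-derived cells. Of the 42, 29 had a higher mean there and 13 a lower one (69.0% higher, against 43.5% of all genes tested), and their median change was 0.35 on the log2(signal + 16) scale, against −0.08 for all genes. Their median change without regard to sign was 0.65, against 0.35 for all genes. The 12 calcium channel genes had a median of 0.79, with 8 higher and 4 lower, and the 30 potassium channel genes a median of 0.28, with 21 higher and 9 lower. The floor lies on the mean over both groups, so a subunit that is dim in one group can enter through the other and then has to differ. Ovary-derived cells had a mean below the floor for 6 tested subunits, among them Cacna1s, Cacnb4, Kcnc1 and Kcns3, and mesonephros-derived cells for 2, among them Kcnj3, so the counts and medians above support nothing about the subunits as a whole. For Cacna1s and Kcnj3 every array of the dim group was below the floor. Without both, 9 of 40 subunits stood at an unadjusted p below 0.05 (22.5%, against 13.4% of the genes with no such group) and 15 did not overlap (37.5% against 21.7%). These counts still hold the other subunits with a group mean below the floor, Kcnc1 and Cacnb4 among them. They too support nothing about the subunits as a whole. The median deviation of the tested subunits from the ovary-derived mean was 0.48, 0.29 and 0.26 on mesonephros-derived arrays 1 to 3 and −0.07, 0.06 and 0.02 on the ovary-derived ones. Array 1, with the highest deviation, was also the one with the highest Gapdh ratio.

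**Figure D2:**
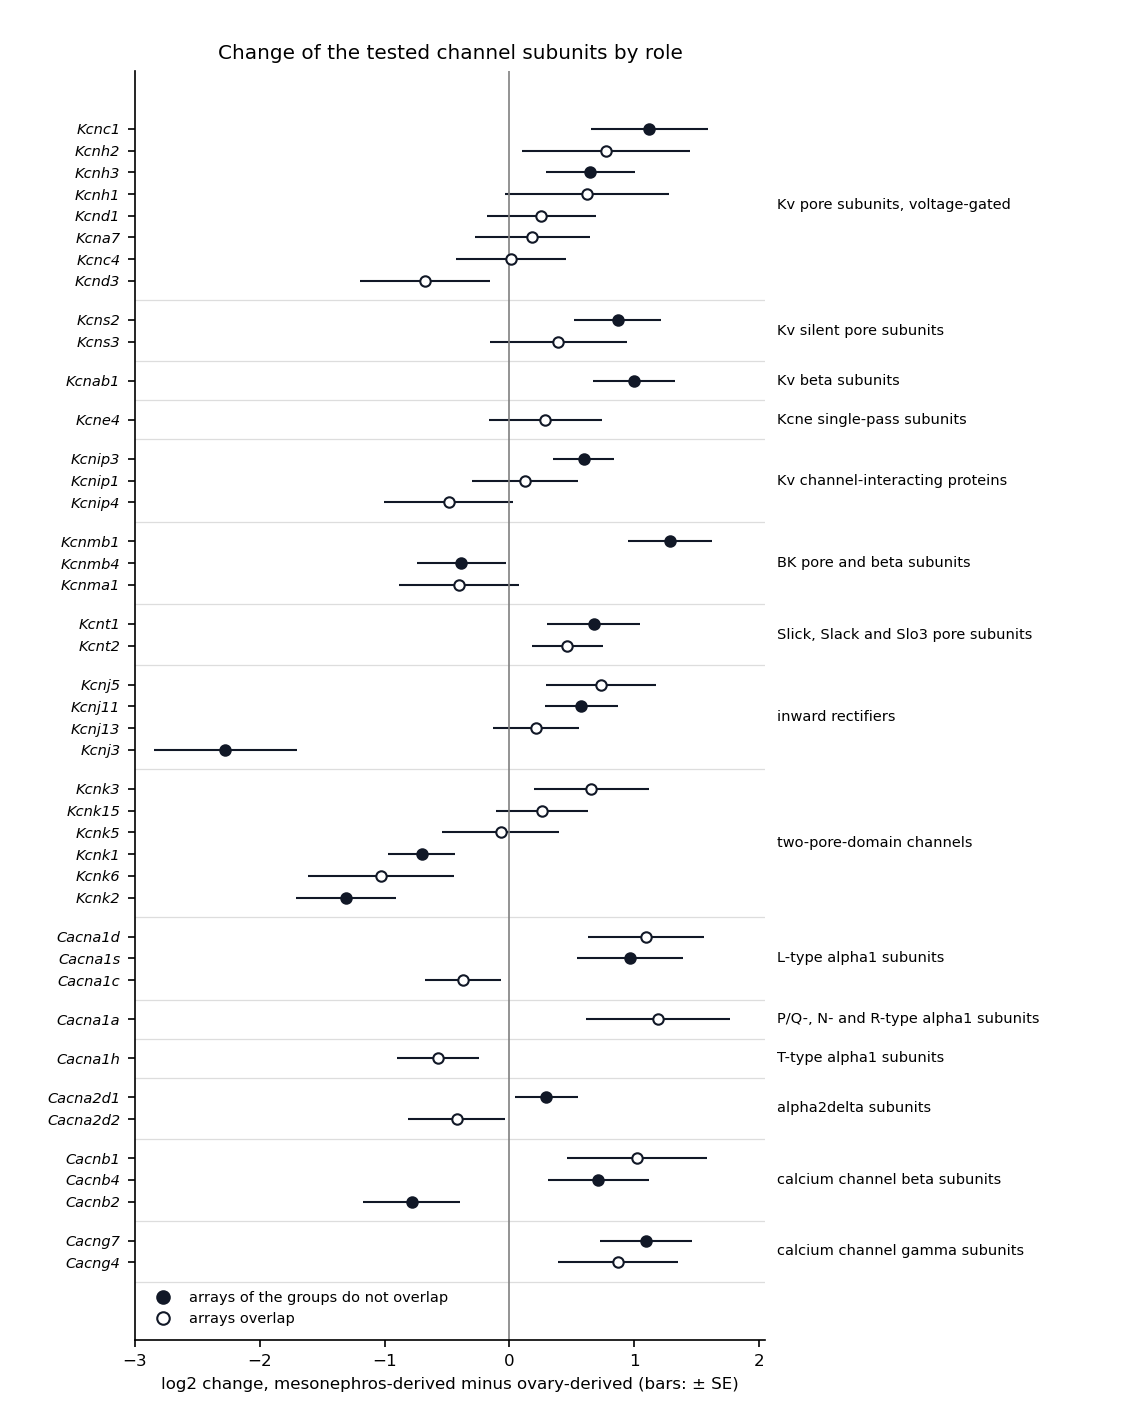
Change of each of the 42 tested subunits (x axis, log2 of mesonephros-derived minus ovary-derived, bars ± SE from limma), grouped by role, with filled points where the 3 arrays of each group do not overlap. Kcnmb1 lies farthest right at 1.29, Kcnj3 lies farthest left but is measured only as a bound, and 0 of 42 passed an adjusted p of 0.05.

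The BK channel is a large-conductance potassium channel opened jointly by voltage and calcium, and it limits contraction in smooth muscle. Its smooth muscle beta subunit Kcnmb1, which raises the calcium sensitivity of the pore, had signals of 884, 528 and 531 in mesonephros-derived cells and 297, 210.2 and 242 in ovary-derived cells. Every mesonephros-derived array was thus brighter than every ovary-derived one, with means of 648 ± 205 and 249.9 ± 43.9 (SD, n = 3 each). The change was 1.29 ± 0.34 (log2 ± SE, 2.45-fold), the highest among the tested subunits, with an unadjusted p of 0.00393 and a limma adjusted p of 0.232. A second probe set of Kcnmb1 gave 1.19 ± 0.55, and leaving out each array in turn gave 1.05 to 1.41. The pore subunit itself did not go with it. Kcnma1 had 109.6, 332 and 106 in mesonephros-derived cells and 207, 227 and 211 in ovary-derived cells, a change of −0.40 ± 0.48, with 2 of the 3 mesonephros-derived arrays below all ovary-derived ones. Leaving out mesonephros-derived replicates 1, 2 and 3 in turn gave −0.17, −0.90 and −0.14. Kcnmb4, the beta subunit best known from brain, had 167, 169 and 149 in mesonephros-derived cells and 192, 248 and 210.5 in ovary-derived cells, without overlap but with a limma adjusted p of 0.640. Kcnmb2, an inactivating beta subunit, lay below the floor.

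Kcnmb1 and Kcnj3, an inward rectifier described further on, lay at the 2 ends of the fitted changes, and their promoters are shown for that reason. The windows run from 250 bases before to 50 bases after the annotated start (RefSeq, GRCm38.p6) and lie at chr11:33962763-33963062 on the plus strand for Kcnmb1 and chr2:55435720-55436019 on the plus strand for Kcnj3. Capitals mark the E-box CANNTG, bound by basic helix-loop-helix factors, and the GC box GGGCGG, bound by Sp-family factors.
Kcnmb1: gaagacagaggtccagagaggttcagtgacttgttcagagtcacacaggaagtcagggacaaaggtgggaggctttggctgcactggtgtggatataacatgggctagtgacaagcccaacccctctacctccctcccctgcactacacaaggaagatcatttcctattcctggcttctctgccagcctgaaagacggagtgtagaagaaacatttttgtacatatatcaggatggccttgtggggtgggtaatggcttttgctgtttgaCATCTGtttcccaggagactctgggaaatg
Kcnj3: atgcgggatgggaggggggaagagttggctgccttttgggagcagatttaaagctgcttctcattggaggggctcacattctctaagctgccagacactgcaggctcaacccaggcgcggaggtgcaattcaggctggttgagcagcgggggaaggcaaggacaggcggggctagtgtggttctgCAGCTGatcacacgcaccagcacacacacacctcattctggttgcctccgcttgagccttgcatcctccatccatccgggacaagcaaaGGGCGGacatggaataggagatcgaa
The Kcnmb1 window holds an E-box and no GC box, and the Kcnj3 window holds both.

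Promoter windows of this kind were found for 78 of the 103 subunit genes and searched on both strands. A gene with several windows counted where any of them held the motif. The number of windows per gene was not taken into account, so the shares may not compare like with like. The GC box GGGCGG was in 66.7% of the 78 genes, against 38.2% of all 27025 genes with windows, and the E-box CANNTG in 74.4% against 75.0%. The TATA box, searched as TATAAA, was in 7.69% against 15.7%. The GLI motif GACCACCCA, the binding sequence of Gli1 and its relatives, was in 1 gene, Cacnb4, and in 1 of its several windows (1.28% against 0.289%). The steroidogenic factor motif CAAGGTCA was in 1 window, that of Kcnf1, a modifier subunit below the floor (1.28% against 1.76%). The CArG box of serum response factor, common near contractile genes, was in 0 of 78 (1.81% of all genes with windows), and in 1 of the 11 contractile genes with a window. These matches describe letters in a short window and say nothing of binding.

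Among accessory subunits of voltage-gated potassium (Kv) channels, the beta subunit Kcnab1 was the tested one of 3. Kcnab1 sits on the cytoplasmic face of the channel and speeds its inactivation. Its signals were 545, 848 and 1133 in mesonephros-derived cells and 398, 449 and 346 in ovary-derived cells, with no overlap. The means were 842 ± 294 and 398 ± 51.2 (SD, n = 3 each), and the change was 1.00 ± 0.33 (log2 ± SE), with a limma adjusted p of 0.287. A second probe set spread more widely, at 89.8, 513 and 901 in mesonephros-derived cells against 309, 301 and 263 in ovary-derived cells, and gave 0.28 ± 0.69, so the mean of both probe sets came to 0.64. Kcnab2, a close relative, was below the floor.

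Kcnip3, a calcium-binding protein that both binds Kcnd pore subunits and acts as a transcriptional repressor, belongs to the same accessory class. It measured 3248, 1778 and 2321 in mesonephros-derived cells and 1485, 1574 and 1642 in ovary-derived cells. All mesonephros-derived arrays lay above the ovary-derived ones, by a narrow margin for replicate 2, and the change was 0.60 ± 0.25 (limma adjusted p = 0.351). Without mesonephros-derived replicate 1 it was 0.37, and a second probe set gave 0.09 ± 0.29. Kcnip1, of the same family, overlapped between groups at 308, 184 and 122 in mesonephros-derived cells and 163, 184 and 177 in ovary-derived cells. Its change ran over −0.19 without mesonephros-derived replicate 1 to 0.42 without replicate 3. Kcne4, a single-pass subunit that damps Kv currents, rested on 1 array: it had 2558, 839 and 638 in mesonephros-derived cells and 855, 917 and 952 in ovary-derived cells. Its change of 0.29 ± 0.46 turned to −0.30 without mesonephros-derived replicate 1 and was 0.49 and 0.68 without replicates 2 and 3. Kcne1 and Kcne3 were below the floor.

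The Kv pore subunits that passed the floor were mostly of the Kcnc, Kcnd and Kcnh families. Kcnc1, a fast delayed rectifier known from fast-spiking neurons, had 170.3, 393 and 187 in mesonephros-derived cells and 70.3, 144 and 93.2 in ovary-derived cells, so that 2 of the 3 ovary-derived arrays were below the floor. The groups did not overlap, and the change was 1.12 ± 0.47 (limma adjusted p = 0.354). The ovary-derived mean was below the floor, so this p comes from a gene that reached it through its brighter group. The other probe sets of Kcnc1 were below the floor on every array. Among these was a probe set that went the other way without overlap. It had 5.93, 8.37 and 11.95 in mesonephros-derived cells and 59.9, 57.2 and 46.2 in ovary-derived cells. The direction given for Kcnc1 rests on its brightest probe set alone. Kcnh3, an ether-a-go-go type channel of brain, had 339.6, 461 and 332 in mesonephros-derived cells and 221, 319 and 177 in ovary-derived cells, also without overlap, for a change of 0.65 ± 0.36. Of its 3 other probe sets past the floor, 2 gave 0.01 and 0.05 and the other 0.52. Kcnd3, which carries the rapidly inactivating A-type current in heart and smooth muscle, had 753, 193 and 923 in mesonephros-derived cells and 943, 882 and 701 in ovary-derived cells. Its change of −0.68 ± 0.52 rested on mesonephros-derived replicate 2 and was −0.00 without it. Its 3 other probe sets gave 0.30, −0.55 and 0.14. Without mesonephros-derived replicate 1 the probe set that gave −0.55 became the brightest, and its change was −0.41.

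The silent Kv subunits form no channel alone and modify Kcnb pores. Kcns2 had 1982, 759 and 1069 in mesonephros-derived cells and 662, 659 and 588 in ovary-derived cells. No array of one group entered the range of the other, the means were 1270.1 ± 636 and 636 ± 41.7 (SD, n = 3 each), and the change was 0.87 ± 0.35 (limma adjusted p = 0.340). Replicate 1 of the mesonephros-derived arrays carried much of it, since the change was 0.49 without that array. A second probe set gave 0.65 ± 0.56. Kcns3 was close to the floor and overlapped, with 118, 261 and 61.6 in mesonephros-derived cells and 64.9, 117 and 102 in ovary-derived cells. Its change of 0.39 ± 0.55 was 0.83 without mesonephros-derived replicate 3 and 0.18 without ovary-derived replicate 1. The Kv pores Kcna2, Kcna5, Kcnq1 and Kcnq5, among them channels known from vascular smooth muscle, were below the floor.

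**Figure D3:**
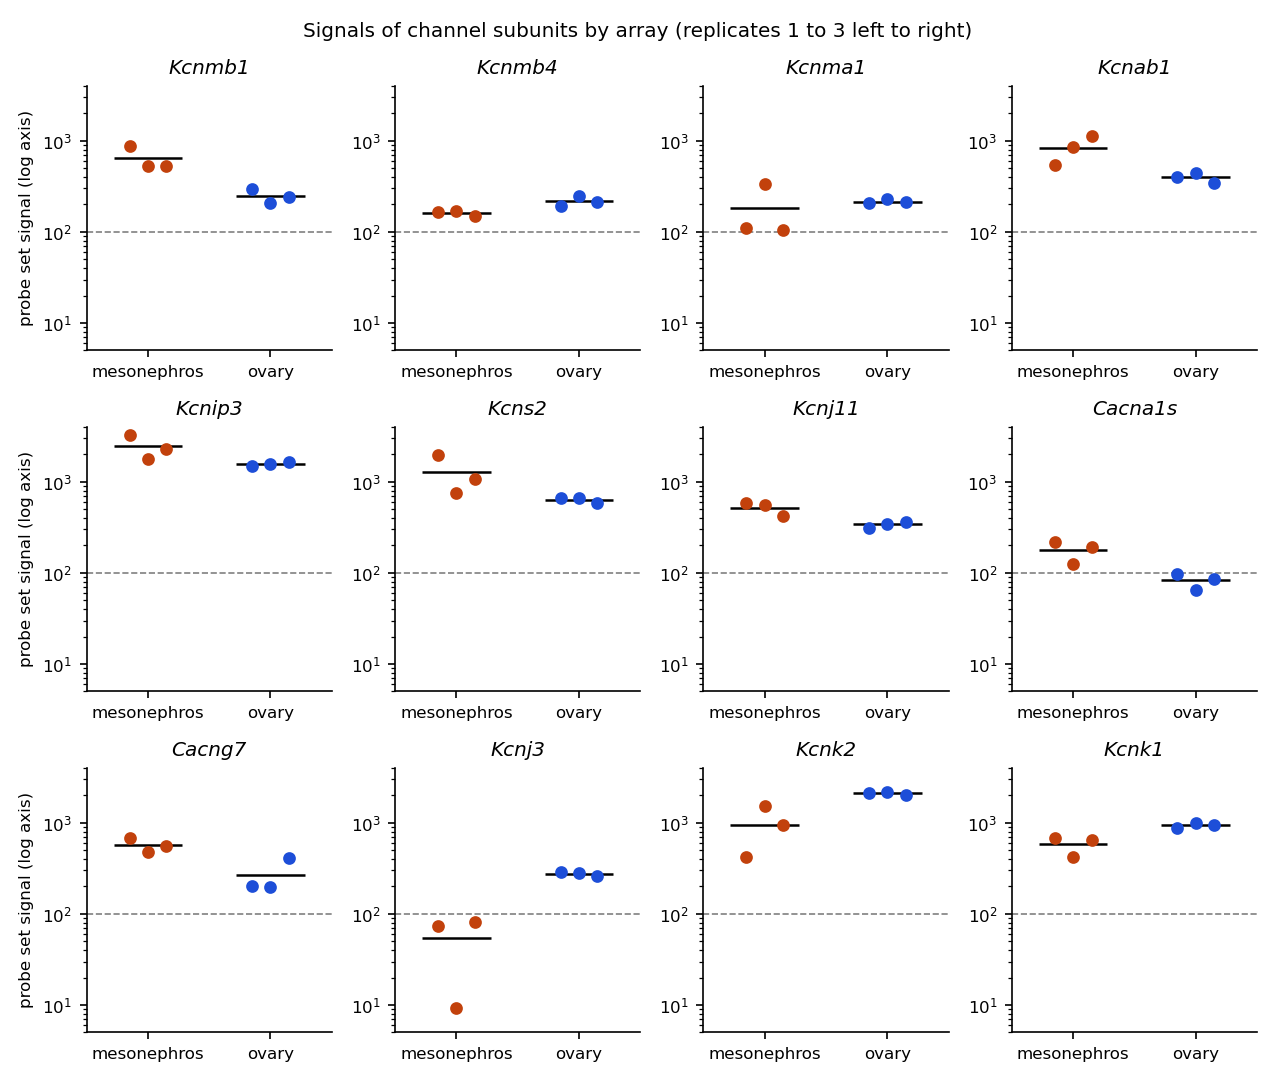
Signal of 12 subunits on each array (y axis, log scale), with mesonephros-derived arrays left and ovary-derived arrays right, bars at the group means and a dashed line at the floor of 99.4. The mesonephros-derived points of Kcnk2 range over 422 to 1513 and the ovary-derived ones over 2041 to 2193, and all mesonephros-derived points of Kcnj3 lie below the floor.

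The sodium-activated channels Kcnt1 and Kcnt2, which open as sodium accumulates inside the cell, were both tested. Kcnt2 had 2722, 5078 and 3989 in mesonephros-derived cells and 3248, 3205 and 2002 in ovary-derived cells, and its groups overlapped (0.47 ± 0.28, limma adjusted p = 0.481). The change was 0.71 and 0.26 without mesonephros-derived replicates 1 and 2, and 0.24 without ovary-derived replicate 3. Kcnt1 had 219, 248 and 255 in mesonephros-derived cells and 112, 186 and 144 in ovary-derived cells, without overlap, and its change was 0.68 ± 0.37 (limma adjusted p = 0.443).

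Inward rectifiers hold the resting voltage or couple it to metabolism and to G proteins. Kcnj3, a pore subunit of the G-protein-gated channel that slows the heart under vagal input, was dim in mesonephros-derived cells on its brightest probe set. Its signals were 73.5, 9.31 and 81.5 in mesonephros-derived cells and 291, 283 and 259 in ovary-derived cells. All 3 mesonephros-derived arrays were below the floor, so the difference is at least 2.54-fold lower in mesonephros-derived cells, the ovary-derived mean against the floor (limma adjusted p = 0.229). Since it reached the floor through the ovary-derived cells, this p supports no difference beyond the bound. The bound holds for that probe set alone. The other probe sets of Kcnj3 lay below the floor in the mean and overlapped. The brightest of these had 255, 81.3 and 24.1 in mesonephros-derived cells and 81.6, 87.8 and 98.7 in ovary-derived cells. Kcnj5, which assembles with Kcnj3 and was added here after its values were seen, overlapped, with 739.6, 325 and 791 in mesonephros-derived cells and 475, 395 and 208 in ovary-derived cells. Its change of 0.73 ± 0.44 was 1.13 without mesonephros-derived replicate 2 and 0.40 without ovary-derived replicate 3.

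Kcnj11 forms the pore of the ATP-sensitive channel that closes when ATP is plentiful. It had 589.9, 550.1 and 422 in mesonephros-derived cells and 312, 345 and 365 in ovary-derived cells, without overlap, for a change of 0.58 ± 0.29 (limma adjusted p = 0.413). Its regulatory partner Abcc8, the sulfonylurea receptor of pancreatic beta cells and no channel pore, had 229.6, 282 and 202 in mesonephros-derived cells and 109, 99.1 and 107 in ovary-derived cells. These groups did not overlap either, and the change was 1.06 ± 0.37 (limma adjusted p = 0.302). The other pair of such a channel, Kcnj8 and Abcc9, which marks pericytes, differed by 0.03 ± 0.41 and 0.03 ± 0.26. Kcnj13, an inward rectifier of transporting epithelia, overlapped at 393, 644 and 626 in mesonephros-derived cells and 335, 468 and 640.2 in ovary-derived cells, and its change of 0.21 ± 0.35 ran over −0.02 without ovary-derived replicate 1 to 0.44 without mesonephros-derived replicate 1 or ovary-derived replicate 3. Kcnj2, the classical rectifier of heart and vessels, and Kcnj15 were below the floor.

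The tandem-pore (two-pore-domain) channels carry the background leak of potassium. Kcnk2, a leak channel opened by membrane stretch and by lipids, had 422, 1513 and 935 in mesonephros-derived cells and 2108, 2193 and 2041 in ovary-derived cells. Each mesonephros-derived array was below every ovary-derived one, but they ranged widely, and the means were 957 ± 545 and 2114 ± 76.5 (SD, n = 3 each). The change was −1.31 ± 0.40, or 2.47-fold lower in mesonephros-derived cells, with a limma adjusted p of 0.269. It was −0.82 without mesonephros-derived replicate 1, the lowest array. Weighting arrays by their noise in limma gave −1.19 and an adjusted p of 0.0366, the only setting in which a subunit passed the threshold.

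Kcnk1, a weakly conducting leak channel, had 673, 426 and 651 in mesonephros-derived cells and 882, 989 and 956 in ovary-derived cells. It too did not overlap, with a change of −0.70 ± 0.27 (limma adjusted p = 0.328), while a second probe set gave −0.12 ± 0.38. Kcnk6, related to Kcnk1, had 253, 58.5 and 74.8 in mesonephros-derived cells and 323, 295 and 131 in ovary-derived cells, overlapped, and moved between −1.60 without mesonephros-derived replicate 1 and −0.67 without replicate 2. Kcnk3, an acid-sensitive leak channel, ran the other way in 2 of 3 arrays, with 502, 580.2 and 177 in mesonephros-derived cells and 231, 225 and 238 in ovary-derived cells. Its change of 0.66 ± 0.46 was 0.35 without mesonephros-derived replicate 2 and 1.17 without replicate 3.

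Of the pore subunits of L-type calcium channels, the slow channels targeted by dihydropyridines, 3 were tested. Cacna1c, the L-type pore of heart and smooth muscle, had 550.1, 486 and 624 in mesonephros-derived cells and 504, 776 and 942 in ovary-derived cells. The groups overlapped, with means of 553 ± 69.0 and 741 ± 221 (SD, n = 3 each) and a change of −0.37 ± 0.31 (limma adjusted p = 0.601). A second probe set went the other way, with 651, 451 and 618 in mesonephros-derived cells and 355, 252 and 585 in ovary-derived cells (0.58 ± 0.37), so no direction is given for Cacna1c. The reported change was −0.62 without ovary-derived replicate 1 and −0.18 without replicate 3. Cacna1d, which opens at more negative voltages and paces endocrine cells, had 493, 319.8 and 212 in mesonephros-derived cells and 83.9, 157 and 213 in ovary-derived cells. Its change of 1.10 ± 0.46 had an unadjusted p of 0.0424 and a limma adjusted p of 0.357, yet the groups met at replicate 3, and a second probe set gave 0.28 ± 0.46. Cacna1s, the L-type pore of skeletal muscle, had 219, 125 and 194 in mesonephros-derived cells and 98.2, 64.6 and 85.8 in ovary-derived cells. All ovary-derived arrays were below the floor, which makes the difference at least 1.66-fold higher in mesonephros-derived cells (limma adjusted p = 0.362), and this p too comes from a gene that reached the floor through its brighter group.

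Outside the L-type, Cacna1a and Cacna1h passed the floor. Cacna1a, the presynaptic P/Q-type pore, had 1788, 467 and 407 in mesonephros-derived cells and 500.0, 195 and 268 in ovary-derived cells. Mesonephros-derived replicate 1 stood far above all other arrays, and the change of 1.19 ± 0.58 was 0.53 without it. Cacna1h, a T-type pore that opens near the resting voltage, had 1123, 479.6 and 980.5 in mesonephros-derived cells and 1182, 1092 and 1374 in ovary-derived cells. These groups overlapped (−0.57 ± 0.33), the change was −0.20 without mesonephros-derived replicate 2, and a second probe set gave 0.31 ± 0.51. Cacna1g, another T-type pore, was below the floor in the mean, with 69.7, 155 and 17.6 in mesonephros-derived cells and 7.42, 5.23 and 6.77 in ovary-derived cells.

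The accessory subunits of calcium channels gave mixed directions. The alpha2delta subunits bring pores to the surface and bind gabapentin-type drugs. Cacna2d1 had 753, 668 and 791 in mesonephros-derived cells and 522, 607 and 667 in ovary-derived cells, with the groups apart only by the gap between 668 and 667 and a change of 0.30 ± 0.25 (limma adjusted p = 0.613). Its 4 other probe sets past the floor gave −0.50, 0.21, 0.27 and 0.84. Without mesonephros-derived replicate 3, or ovary-derived replicate 2 or 3, the probe set that gave 0.21 became the brightest. Its change was then 0.45, 0.14 and 0.18. These values do not show how far the probe set described above depends on single arrays. Cacna2d2 had 235, 216 and 452 in mesonephros-derived cells and 343, 522 and 323 in ovary-derived cells (−0.42 ± 0.39), and its second probe set gave 0.69 ± 0.54. The change was −0.23 and −0.74 without mesonephros-derived replicates 2 and 3, and −0.21 without ovary-derived replicate 2.

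The beta subunits chaperone the pore and set its voltage dependence. Cacnb2, the main beta subunit of heart, had 123, 298 and 202 in mesonephros-derived cells and 353, 326 and 368 in ovary-derived cells. It was lower on all mesonephros-derived arrays, by −0.78 ± 0.39 (limma adjusted p = 0.409), and a second probe set gave −0.51 ± 0.40. Leaving out mesonephros-derived replicate 1 brought the change to −0.48. When ovary-derived replicate 3 was dropped, the second probe set became the brightest, and its change was then −0.51. That value does not show how far the probe set described first depends on this array. Cacnb4, a beta subunit of brain with the GLI motif in 1 of its several promoter windows, had 164, 198 and 134 in mesonephros-derived cells and 114, 86.0 and 82.6 in ovary-derived cells, without overlap (0.71 ± 0.40, limma adjusted p = 0.458). The ovary-derived mean of Cacnb4 was below the floor, so this p comes from a gene that reached it through its brighter group. Its other probe sets were below the floor and overlapped. Cacnb1, known from skeletal muscle, had 1207, 228 and 445 in mesonephros-derived cells and 182, 328 and 224 in ovary-derived cells. It overlapped, and its change of 1.03 ± 0.56 was 0.40 without mesonephros-derived replicate 1 and 1.57 without replicate 2.

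Gamma subunits are membrane proteins, several of which regulate glutamate receptors more than calcium channels. Cacng7 had 685, 474 and 558 in mesonephros-derived cells and 203, 199.8 and 409 in ovary-derived cells, without overlap, and a change of 1.10 ± 0.37 (unadjusted p = 0.0157, limma adjusted p = 0.292). Its second probe set went the other way with a wide spread, at 2.25, 162 and 335 in mesonephros-derived cells and 167, 148 and 202 in ovary-derived cells (−0.84 ± 0.94), and the mean of both was 0.13. The 9 tested subunits not described singly had log2 changes of −0.49 to 0.87, 7 of them above 0, with limma adjusted p-values of 0.450 to 0.992.

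**Figure D4:**
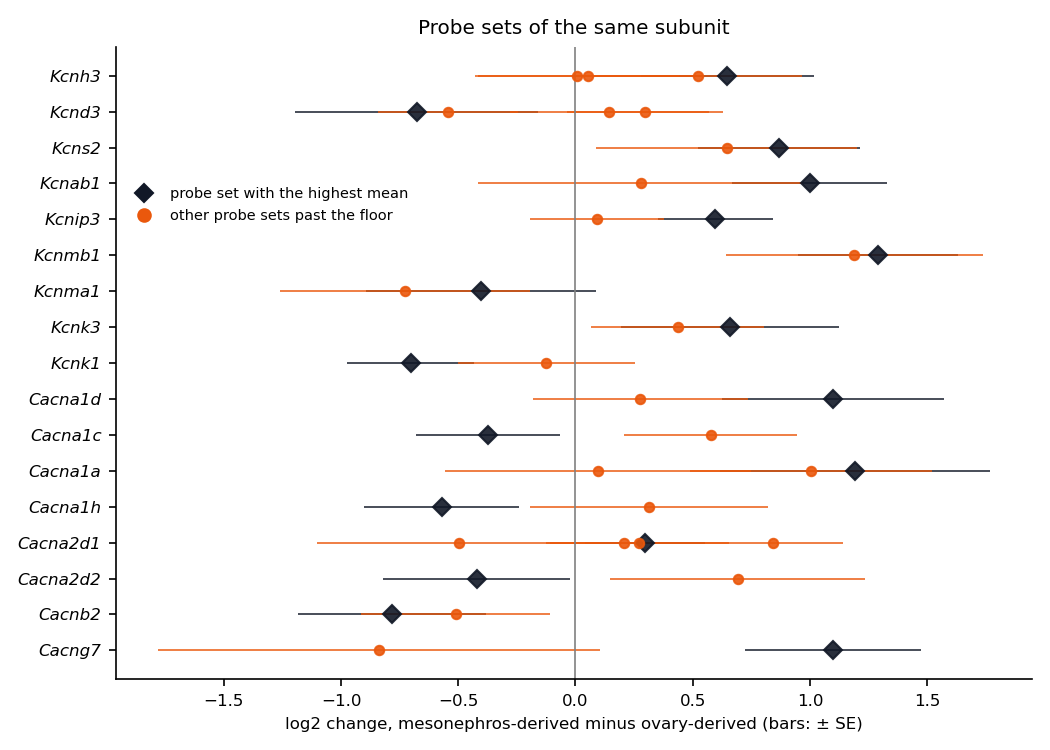
Change (x axis, log2 of mesonephros-derived minus ovary-derived, bars ± SE) by each probe set past the floor for the 17 tested subunits that had more than 1, with diamonds for the brightest and circles for the others. For 6 of the 17 at least 1 circle lies on the other side of 0 from the diamond: Kcnd3, Cacna1c, Cacna1h, Cacna2d1, Cacna2d2 and Cacng7.

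Of the 61 subunits below the floor, 15 had groups that did not overlap, against 14.2% among the 6490 genes below the floor. Of the 15, 10 were higher (8.01% of those genes) and 5 lower (6.21%) in mesonephros-derived cells, and 31 had at least 1 array above the floor. These were not tested. On its brightest probe set Kcna6, a Kv pore, had 79.1, 176 and 154 in mesonephros-derived cells and 35.4, 48.9 and 52.7 in ovary-derived cells. That probe set alone would be at least 1.26-fold higher. Another went the other way without overlap, at 24.1, 29.6 and 33.8 in mesonephros-derived cells and 78.8, 141 and 138 in ovary-derived cells. No direction is therefore given for Kcna6. A further 3 are given because their values stood out. Kcnk12, a tandem-pore subunit, had 383, 575 and 65.1 in mesonephros-derived cells and 5.34, 8.72 and 38.2 in ovary-derived cells, at least 2.32-fold higher, with 2 of 3 mesonephros-derived arrays above the floor. Cacna1b, the presynaptic N-type pore, had 122, 306 and 103 in mesonephros-derived cells and 46.2, 28.8 and 32.2 in ovary-derived cells, at least 1.51-fold higher on its brightest probe set. Its other probe sets were below the floor on every array and overlapped. Cacng5, a gamma subunit, had 19.1, 55.6 and 29.2 in mesonephros-derived cells and 132, 224 and 110.1 in ovary-derived cells, at least 1.43-fold lower. Of the calcium-activated channels below the floor, Kcnn3 had 10.5 to 84.1 over the 6 arrays and Kcnn4 had 19.1 to 156. Kcnn2 was above the floor on 1 array, at 10.0, 302 and 7.87 in mesonephros-derived cells against 43.6, 50.3 and 60.7 in ovary-derived cells.

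**Figure D5:**
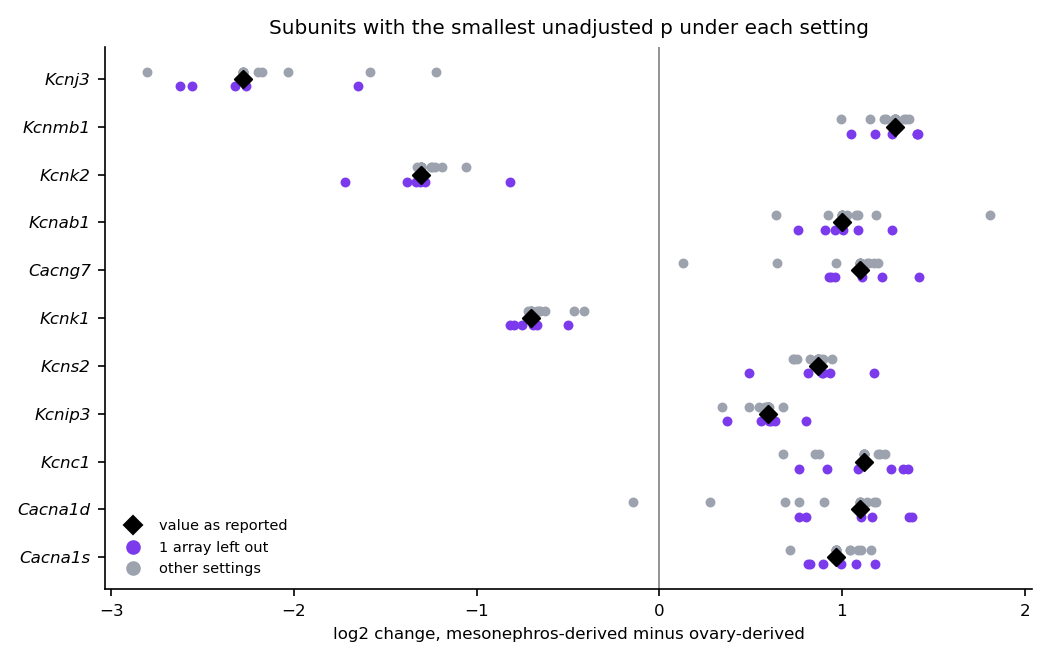
Change (x axis, log2 of mesonephros-derived minus ovary-derived) of the 11 subunits at an unadjusted p below 0.05, as reported (diamond), with 1 array left out and under the other settings. Cacna1d alone crosses 0, at −0.15 with the spike signal as a covariate, Kcnmb1 and Kcnk2 keep their sides, and Kcnj3 and Cacna1s are measured only as bounds.

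Genes of neighbouring ion transport functions were set beside the subunits by count. Among partners of the channels that are no pore or named subunit, 7 of 15 were tested and 6 had a higher mean in mesonephros-derived cells, with 0 past the threshold and a median of 0.61. Of the calcium store genes 13 of 18 were tested, 7 had a higher mean and the median was 0.24. Pln, which restrains the calcium pump of the store, was 0.93 ± 0.39, and Itpr2, a calcium release channel, was −0.66 ± 0.31. Of other cation channels 14 of 29 were tested, 9 had a higher mean and the median was 0.15. Trpv2, a stretch-sensitive cation channel, had 365, 442 and 230.1 in mesonephros-derived cells and 116, 162 and 117 in ovary-derived cells, without overlap (1.26 ± 0.39, limma adjusted p = 0.270). Of chloride channel genes 13 of 15 were tested and 2 had a higher mean, with a median of −0.42. Ano1, a calcium-activated chloride channel of smooth muscle, had 1412, 1636 and 2819 in mesonephros-derived cells and 2506, 2955 and 3052 in ovary-derived cells (−0.59 ± 0.27). Of pumps and exchangers 10 of 15 were tested, 3 had a higher mean and the median was −0.13. In all these ion lists 0 genes passed the threshold.

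Markers of other cells were also compared between the groups. All 15 contractile genes had a higher mean in mesonephros-derived cells, with a median change of 1.05, and Myh11 and Tagln rose with limma adjusted p-values of 0.0277 and 0.0341. The contractile list summed to 154285, 160174 and 128466 in mesonephros-derived cells and 62511, 66648 and 69876 in ovary-derived cells. All 7 pericyte markers had a higher mean, summing to 27878 to 39807 in mesonephros-derived cells and 19896 to 27093 in ovary-derived cells. Of 9 tested endothelial markers, 1 had a higher mean of log2 values, and the list summed to 3745 to 7820 in mesonephros-derived cells and 6453 to 9672 in ovary-derived cells. Of 9 tested macrophage markers, 0 had a higher mean of log2 values. Their mean deviation from the ovary-derived cells was −2.70, 0.47 and −0.77 in mesonephros-derived replicates 1 to 3, so the arrays disagreed. By mean signal the directions were mixed, with C1qb at 2469 against 1968 and Mrc1 at 126 against 432 in ovary-derived cells. The list summed to 1505 to 12685 in mesonephros-derived cells and 5927 to 8903 in ovary-derived cells. Of 8 neuronal markers only Syt1 was tested (0.20 ± 0.36), and Snap25, Tubb3, Uchl1 and Stmn2 were below the floor. The part of these cells in the subunits' values was not tested.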

How the data were processed

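A fixed volume of total RNA from each of the 6 samples was amplified and labelled with biotin, per the labels' protocols. The deposited values are linear intensities per probe set. Per the submitters' processing notes they were made with MAS5, in a version not given in the sources used here. After trimming 2% of values at either end every array averaged 500, so no normalization was added. Intensities were analysed as log2(signal + 16), which understates fold changes of dim genes. Counts of genes with a higher or lower mean refer to means on that log2 scale. The 64 control probe sets were set aside. Among the other 45037, 34945 carried 1 gene symbol, 932 carried several and named no gene, and 9160 were unnamed here. All 103 subunit symbols matched a RefSeq gene table, with 0 changed. The probe set with the highest mean of log2 values stood for its gene, and 11703 genes reached the floor, the 40th percentile of those means. The groups were compared by linear models in limma 3.58.1 (R 4.3.3), with moderation of variances along an intensity trend, and p-values were adjusted by Benjamini-Hochberg over those genes, with 0.05 as the threshold. Precision is limited by having 3 arrays in a group.

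Subunits were named where their groups did not overlap, where they were among the 12 with the highest mean signal, or where they stood in a list of channels known from muscle and endocrine cells. Genes outside the subunits were named from lists, at most 4 per list by smallest p. Exceptions were Kcnj8 and Abcc9, named as the other pair of an ATP-sensitive channel, and the neuronal markers below the floor. C1qb was a further exception, named because its mean signal ran the other way. The subunits and lists were chosen with earlier results of these data known. For a group with every array below the floor, the fold is a bound against the floor. Settings tried beside this one were other pseudocounts, floors, normalizations, probe set choices and variance models, array weights, the replicate number as a block, the signal of the poly-A spikes as a covariate, and leaving out each array.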

Additional observations from a re-analysis of the deposited data

Results flagged for a closer look

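The probe sets of the poly-A spikes, control RNAs that are usually added before amplification and were not used in the comparisons above, were brighter on every mesonephros-derived array than on any ovary-derived one. Divided by the mean over ovary-derived arrays, their signal came to 11.2, 10.3 and 2.12 for mesonephros-derived replicates 1 to 3, against 0.609, 0.784 and 1.61 in the ovary-derived replicates. The probe sets of the hybridization spikes, which are usually added after amplification, stood at 3.25, 2.66 and 1.36 in mesonephros-derived cells and 0.833, 0.972 and 1.20 in ovary-derived cells. The spike signal was also entered as a covariate, given with the other settings. Because it was higher on every mesonephros-derived array, that fit cannot separate its part from that of the group.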

How the results depend on the processing

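The number of subunits past the adjusted threshold was 0 under all settings except array weights, which called 1, Kcnk2. At an unadjusted p below 0.05 there were 7 subunits with a floor at the 60th percentile, 25 with no floor, 6 with probe sets averaged per gene and 2 with the signal of the poly-A spikes as a covariate, against 11 as reported, and 5 to 13 with 1 array left out. The shares of all genes were 14.02%, 11.8%, 14.1% and 2.66% under those settings, 13.7% as reported, and 5.45% to 20.7% with 1 array left out. Non-overlapping subunits were 22 higher and 10 lower with no floor, 2 lower with the higher floor and 6 higher with the mean of probe sets, and 13 to 17 higher and 5 to 8 lower with 1 array left out. In either direction 19.3%, 22.6% and 23.2% of all genes did not overlap under those settings, and 26.9% to 39.9% with 1 array left out, since fewer arrays overlap less. The median change was 0.58 with the higher floor, 0.21 with no floor, 0.23 with the spike covariate and 0.35 to 0.50 with 1 array left out. Over all genes 5 were called as reported, 129 with array weights, 0 without the intensity trend, 0 with the spike covariate, and 0 to 46 with 1 array left out.

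Of 604 values for 33 named subunits under 19 settings, 589 kept their direction and 15, of 9 subunits, reversed. With the spike covariate, Kcne4 was −0.91, Kcnip1 −0.76, Kcns3 −1.01, Kcnk3 −0.84, Cacna1d −0.15, Kcnd3 0.67 and Cacna2d2 0.62. The spike signal runs with the group, so no conclusion is drawn from these values. With the mean of probe sets, Cacna1c was 0.10 and Cacna2d2 0.44. With array weights, Kcne4 was −0.15, Kcnip1 −0.21 and Kcns3 −0.087. With 1 array left out, Kcne4 ran over −0.30 to 0.68 and Kcnip1 over −0.19 to 0.42, both lowest without mesonephros-derived replicate 1, and Kcnj13 over −0.015 to 0.44, lowest without ovary-derived replicate 1. The cause was not tested. Samples of the same replicate number deviated together at correlations of −0.00, 0.07 and −0.01, so the numbers were not taken as pairs, and with them as a replicate block 0 subunits were called and 9 stood at an unadjusted p below 0.05. Signals near the floor limit what can be said of the dim subunits.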
